A study of Mus musculus with 3 samples.

Results

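Nuclei of brown adipocytes (BAs) from untreated mouse interscapular brown adipose tissue (BAT) were split by whether a transcript of Kit, the gene of the receptor c-Kit, was counted in them. Of 13707 barcodes in the untreated library, 7298 held at least 800 unique molecular identifiers (UMIs, each standing for 1 captured transcript) with at most 50% of them from mitochondrial genes. A barcode was taken as a BA nucleus when the adipocyte genes Adipoq, Plin1, Pparg, Cidea and Ppara together had at least 4 UMIs and at least 4 times the UMIs of the endothelial genes Pecam1, Flt1, Kdr, Ptprb, Cyyr1 and Adgrl4, and when the white adipocyte genes Slc7a10, Trhde, Nnat and Retn had 0. This left 4034 nuclei of the 44897 barcodes in the 3 libraries of the series, of which 1636 had at least 1 Kit UMI (Kit-detected) and 2398 had none (Kit-undetected). To compare nuclei of like depth, equal numbers were drawn from both groups within bins of 0.25 of log2 total UMIs, which gave 1501 nuclei in each group. The nuclei were chosen by their measured Kit UMIs, total UMIs and marker sums, so these values are described here without being tested.

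c-Kit is a receptor tyrosine kinase whose ligand is stem cell factor (SCF, encoded by Kitl). On binding SCF it dimerizes, phosphorylates itself and signals through PI3-kinase and AKT, MAP kinase and JAK/STAT, and it is known best from blood stem cells, mast cells, melanocytes and germ cells. BAs store lipid in many small droplets and burn it through the mitochondrial uncoupling protein encoded by Ucp1, and they also make fatty acids from glucose by de novo lipogenesis.

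The mice were wild-type C57Bl6 adults, and the series holds 1 library each of untreated BAT, of BAT after a sham operation and of BAT after denervation. The untreated and the denervated library came from 20 mice each. The denervated mice were sampled 3 days after the nerves of a single side were cut, with tamoxifen listed in their procedure. The paper's methods give 8 weeks as the age of mice for nucleus isolation and state that only males were used. The number of mice behind the sham library and its tamoxifen treatment are not given in the sources used here. The nuclei came from the floating layer of digested tissue, which also carries pieces of vessels. With 1 library per condition, nuclei are not replicates and no test was made. Intervals are at 95% and cover counting error only, exact for matched groups and shares and normal approximations for values over all nuclei and by Kit UMIs, and they leave out differences between mice and between nuclei. Levels are UMIs of a gene, summed over a group of nuclei, per 1000000 UMIs of that group (CPM). Differences are log2 ratios of these CPM, Kit-detected over Kit-undetected, with Kit left out of the totals.

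Matching removed the difference in depth between the groups. The median was 2112 UMIs per nucleus in all Kit-detected and 1745 in all Kit-undetected nuclei, and 2047 and 2045 after the draw. The matched groups held 3127418 and 3115279 UMIs with a median of 1280 and 1275 detected genes, and mitochondrial genes took 3.07% and 3.08% of the UMIs. Both groups carried the BA markers at close levels. Adipoq, the adipokine adiponectin, stood at 219 CPM in Kit-detected and 221 CPM in Kit-undetected nuclei, Plin1, the droplet coat protein perilipin 1, at 1632 and 1600 CPM, and Pparg, the master regulator of adipocytes, at 2242 and 2305 CPM. The 6 endothelial genes of the rule together had 770 and 759 UMIs, and the 4 white adipocyte genes were at 0 by construction. Between libraries, 251 to 278 barcodes were shared, 1.6% to 1.85% of a library.

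Kit itself was counted sparsely. A Kit UMI was found in 40.6% of the 4034 nuclei (1636 nuclei, exact Clopper-Pearson interval 39.0% to 42.1%), at a level of 320 CPM (307 to 332). In 703 nuclei of the same library with at least 4 UMIs of the endothelial genes and none of the adipocyte genes, the share was 4.84% (3.37% to 6.69%), at a median depth of 979 UMIs against 1904 in the BA nuclei. After each nucleus was thinned to 800 UMIs, a step that left out no nucleus of either kind, the shares were 20.9% and 4.13%. Free RNA that enters every nucleus could give a Kit UMI to a nucleus without Kit expression, and the endothelial share is given as a level to set the BA share against. The paper's reporter mice showed c-Kit in part of the endothelial cells of BAT. The endothelial share can thus hold Kit RNA of their own as well as free RNA. These nuclei were also chosen for having no UMI of the adipocyte genes. That choice can leave out nuclei with more free adipocyte RNA, so the share can be too low as a level of free RNA.

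A nucleus without a Kit UMI need not lack Kit RNA at this depth. At 1 common Kit rate per UMI in all 4034 nuclei, 2206 nuclei would have had 0 Kit UMIs, and 2398 were observed. The distribution was wider than a common rate gives, with 1028 nuclei at 1 UMI against 1285, 412 at 2 against 418, 131 at 3 against 101, 50 at 4 against 19.9 and 15 at 5 or more against 4.09. The share with a Kit UMI grew with depth, from 18.5% of 249 nuclei below 1024 UMIs to 51.6% of 1320 nuclei between 2048 and 2896 UMIs. The Kit level was also lower in the shallower nuclei, at 254 CPM (193 to 328) below 1024 UMIs and 232 CPM (202 to 265) between 1024 and 1448 UMIs, against 322 CPM (300 to 346) and 349 CPM (328 to 370) in the next 2 depth classes. The interval of the shallowest class overlapped that of the class from 1448 to 2048 UMIs. At the threshold of the split, the 1028 nuclei just inside it with 1 Kit UMI had a median of 2019 total UMIs.

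**Figure D1:**
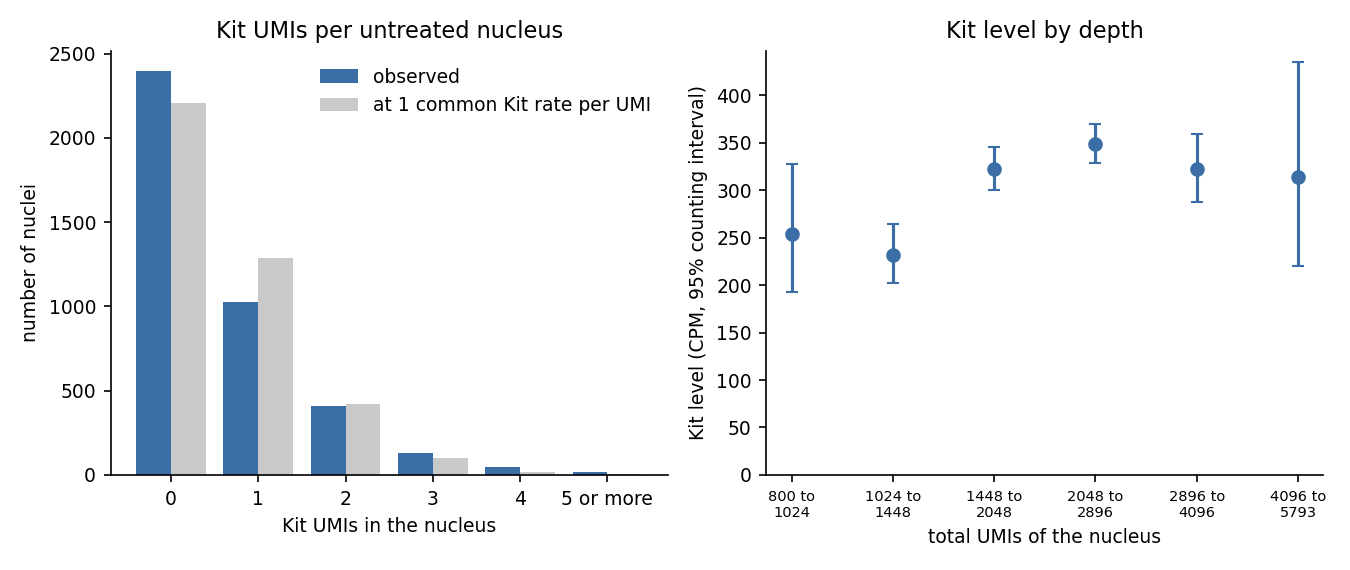
Kit UMIs in untreated BA nuclei. Left, number of nuclei by Kit UMIs per nucleus, observed (blue) and as 1 common Kit rate per UMI would give (grey), with more nuclei than that rate at 0 and at 3 or more; right, Kit level in CPM by total UMIs of the nucleus with exact 95% Poisson intervals, lower in the 2 shallowest classes (254 and 232 CPM) than in the next 2 (322 and 349 CPM). The 1 nucleus above 5793 UMIs is left out.

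Across the transcriptome, the matched groups were close to each other. Of 8007 genes with at least 100 UMIs in both groups together, 155 were higher (1.94%) and 193 lower (2.41%) in Kit-detected nuclei, 4.35% in either direction, where a call needs a log2 ratio beyond 0.32 in either direction and an interval on 1 side of 0. The interval lay on 1 side for 7.98% of genes at any fold, where equal rates and pure counting error would give at most about 5%. The median log2 ratio over all tested genes was -0.001. The spread narrowed with counts. Of 2811 genes with at least 500 UMIs, 9 in 10 lay between -0.18 and 0.18, and of 482 genes with at least 2000 UMIs, between -0.11 and 0.12. Called genes were mostly sparse, with a median of 206 UMIs for those higher and 225 for those lower, against 340 for all tested genes.

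Of the 2811 genes with at least 500 UMIs, only 5 were called higher and 13 lower, smaller shares than the 1.94% and 2.41% of all tested genes. Lists of well-counted genes can thus hold fewer calls than those shares. The 5 were B430010I23Rik, Mettl24, Slc25a17, Rpl37 and Dram1, with log2 ratios of 0.34 to 0.38. The 13 were the heat shock genes Hspa1a, Hspa1b and Hspb1, the AP-1 factor Jun, and Sat1, Slc38a6, Arpc1a, Nol4l, Ust, Stt3b, Arel1, Mcts1 and Macrod1. Mettl24, Slc25a17, Dram1 and the last 8 of the lower genes were singled out after their values were seen.

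**Figure D2:**
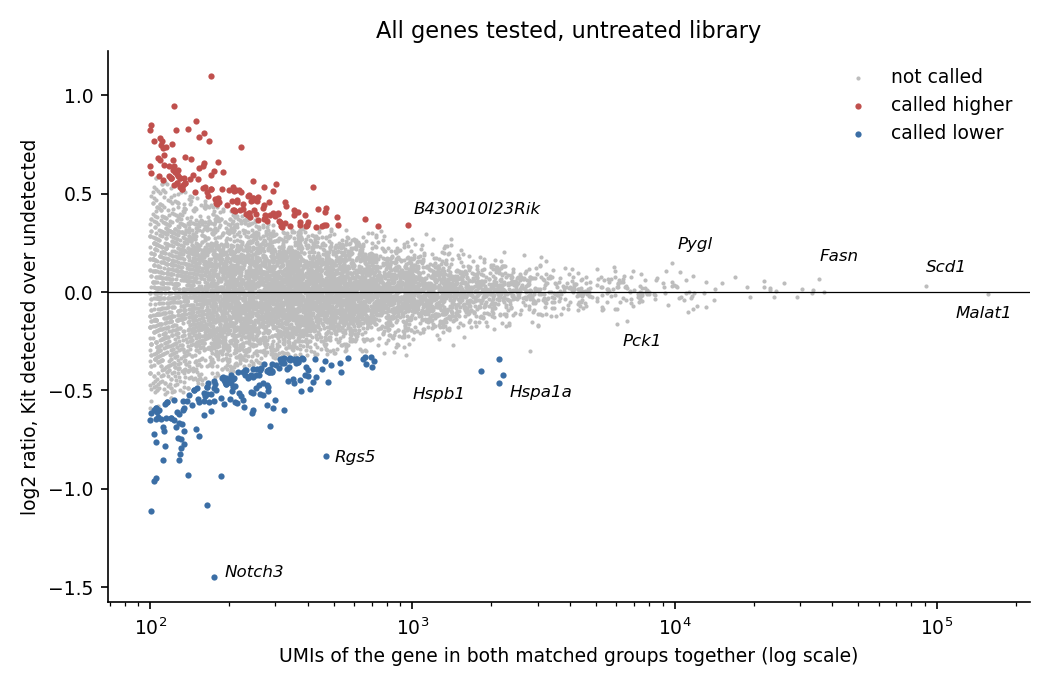
All 8007 tested genes of the untreated library. Each point is a gene, with its UMIs in both matched groups together (log scale) against the log2 ratio of Kit-detected over Kit-undetected nuclei; the 155 genes called higher are red and the 193 called lower are blue. Fasn, Scd1 and Malat1 lie close to 0, and Hspa1a and Hspb1 lie at -0.46 and -0.40.

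Most de novo lipogenesis genes had ratios slightly above 0, and none passed the call. Of 22 genes of fatty acid synthesis and its control, 20 were tested, and 16 had a ratio above 0 and 4 below. Of these, 0 passed the call, where 1.94% of all tested genes were called higher. Most members are well counted, and of 2811 genes with at least 500 UMIs only 5 were called higher. A list of this size can hold 0 calls at these shares. Their median log2 ratio was 0.04. Fasn, the fatty acid synthase, had 18298 UMIs in Kit-detected and 17393 in Kit-undetected nuclei, that is 5855 and 5583 CPM, a log2 ratio of 0.07 (0.04 to 0.10). Scd1, the stearoyl-CoA desaturase and the most abundant of them, stood at 14685 and 14385 CPM, a log2 ratio of 0.03 (0.01 to 0.05). For both genes the interval lay above 0 while the fold was under 1.1.

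Acly, which splits citrate into the acetyl-CoA that lipogenesis uses, stood at 4248 and 4113 CPM (log2 ratio 0.05, 0.01 to 0.08), and Thrsp, a lipogenic regulator, at 2138 and 2068 CPM (0.05, -0.001 to 0.10). Slc25a1, the carrier that exports citrate from mitochondria, showed a larger ratio at 527 and 466 CPM (0.18, 0.08 to 0.28). Other members of the list had ratios as large, Pgd with 0.19 (0.08 to 0.30) and G6pdx with 0.19 (0.01 to 0.37). Scap had 0.36 (-0.05 to 0.78) on 116 and 90 UMIs. Pgd, G6pdx and Scap were singled out after their values were seen. Acaca, the acetyl-CoA carboxylase that commits carbon to fatty acids, had 18568 and 18529 UMIs and a log2 ratio of -0.002 (-0.03 to 0.03). The transcription factor genes Srebf1 and Mlxipl (encoding SREBP1 and ChREBP) had 0.04 (-0.05 to 0.13) and 0.03 (-0.01 to 0.06), and these 2 were singled out for their role after their values were seen.

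The study reported Fasn, Scd1, Acly, Thrsp, Slc25a1 and the glycogen gene Ppp1r3b higher in c-Kit-positive BAs of the denervated library. It used MAST over nuclei with a lower fold limit than the call used here. For the untreated library the list was thus chosen elsewhere. All 6 had a ratio above 0 here, with a median of 0.05. The call was passed by 0 of 6, beside 1.94% of all tested genes called higher, and 5 of the 2811 with at least 500 UMIs. Ppp1r3b, which targets a phosphatase to glycogen, stood at 4938 and 4892 CPM (0.01, -0.02 to 0.05). Over 14 other settings that kept the Kit split and compared nuclei of like depth, Slc25a1 kept ratios of 0.17 to 0.31 and Fasn of 0.03 to 0.11, while Scd1 ran from -0.05 to 0.09 and Ppp1r3b from -0.02 to 0.09. Some of these settings only rescaled the same nuclei, so they are not independent. Without matching on depth, the median of the fatty acid synthesis list was 0.13.

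Glycogen and glucose genes leaned the same way, again with 0 called, beside 1.94% of all tested genes called higher and 2.41% lower. Lists of these sizes can hold 0 calls at such shares. Of 12 tested glycogen genes, 11 had a ratio above 0, with a median of 0.07. Pygl, the glycogen phosphorylase that breaks glycogen down, had 5127 and 4614 UMIs, or 1641 and 1481 CPM, with a log2 ratio of 0.15 (0.09 to 0.21). It had a UMI in 90.1% of Kit-detected and 86.3% of Kit-undetected nuclei. Among 18 tested genes of glucose use, 12 lay above 0 with a median of 0.06, and Hk2 (hexokinase 2) had 0.09 (0.03 to 0.16), Tkt (transketolase) 0.08 (0.04 to 0.12) and Aldoa (aldolase A) 0.08 (0.03 to 0.13). Pygl kept a ratio of 0.11 to 0.21 over the 14 settings.

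Genes that make and break down triglycerides held 0 calls, beside 1.94% of all tested genes called higher and 2.41% lower. Lists of this size can hold 0 calls at these shares. Pck1 encodes the enzyme that supplies glycerol to triglyceride synthesis in fat. It had 2850 UMIs in Kit-detected and 3185 in Kit-undetected nuclei, or 912 and 1022 CPM, a log2 ratio of -0.16 (-0.24 to -0.09), and -0.24 to -0.12 over the 14 settings. Of the 12 tested triglyceride genes, 7 lay above 0 with a median of 0.03. Plin2, a droplet coat protein, had 0.13 (0.05 to 0.20) in the list of lipolysis and droplet genes, whose 12 tested members had a median of 0.04 and 0 calls. The lists of fatty acid uptake (15 tested, median 0.03) and fatty acid oxidation (16 tested, median 0.01) had 0 calls as well.

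Thermogenic genes lay on both sides of 0 and held 0 calls, beside 1.94% of all tested genes called higher and 2.41% lower. A list of this size can hold 0 calls at these shares. Ucp1 had 1112 and 1083 UMIs, 356 and 348 CPM, with a log2 ratio of 0.03 (-0.09 to 0.16). It had a UMI in 41.6% of Kit-detected and 40.3% of Kit-undetected nuclei. In nuclei with 1, 2 and 3 or more Kit UMIs, described below, Ucp1 had 0.06, 0.15 and -0.30 (-0.56 to -0.04). Of 24 genes of thermogenic identity, 18 were tested, 9 above and 9 below 0, with 0 calls and a median of 0.004. The acid-sensitive potassium channel gene Kcnk3 had -0.09 (-0.16 to -0.01) and Ebf2, a transcription factor of brown fat, 0.01 (-0.06 to 0.09). Among 19 tested genes of adrenergic receptors and cAMP signalling, 0 were called and the median was -0.01.

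Genes that act downstream of c-Kit were likewise close to equal. Of 43 listed genes of c-Kit signalling, 34 were tested and 1 was called higher, Jak2, a kinase that many cytokine receptors use, with 163 and 124 UMIs and a log2 ratio of 0.39 (0.04 to 0.74). That is 2.94% of the tested members beside 1.94% of all genes, and Jak2 passed the call in 4 of the 13 other settings that tested it. Pik3r1 and Akt2, of the PI3-kinase and AKT arm, had -0.05 (-0.12 to 0.02) and -0.05 (-0.15 to 0.05), and Mtor had 0.12 (0.002 to 0.25). Kitl, the ligand's gene, had 84 and 78 UMIs, a log2 ratio of 0.10 (-0.36 to 0.57). The insulin signalling list had 17 tested members, 0 calls and a median of -0.01.

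Heat shock genes were, with Jun, the genes with the most UMIs among those called lower in Kit-detected nuclei. Of 20 listed heat shock genes, 19 were tested, 15 lay below 0 and 3 were called lower, beside 2.41% of all genes. These 3 are among the 13 called lower of 2811 genes with at least 500 UMIs. Hspa1a, an inducible HSP70 chaperone on chromosome 17 (GRCm38, 34969190 to 34972156), had 901 and 1238 UMIs, or 288 and 397 CPM, and a log2 ratio of -0.46 (-0.59 to -0.34). Hspa1b, its neighbour on chromosome 17 (34956436 to 34959238), had 304 and 407 CPM and -0.42 (-0.54 to -0.30). Their coding regions are nearly identical, so reads within them can be assigned to the wrong copy of the pair. Hspb1, the small chaperone HSP27 on chromosome 5 (135887919 to 135889563), had 252 and 333 CPM and -0.40 (-0.54 to -0.27). Hsp90aa1, the inducible HSP90, had -0.30 (-0.41 to -0.19) and did not pass the fold, and the constitutive Hspa8 had -0.01 (-0.11 to 0.09).

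These genes are known targets of heat shock factor 1, which binds inverted repeats of the letters GAA. Their promoters are shown because Hspa1a, Hspa1b and Hspb1 share a motif of GAA, any 2 bases and TTC, which reads the same on both strands, in the 250 bases before the start in RefSeq (GRCm38.p6), with the motif in capitals. The stretches are chr17:34972157-34972406 and chr17:34959239-34959488, both on the minus strand, and chr5:135887669-135887918 on the plus strand.

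Hspa1a: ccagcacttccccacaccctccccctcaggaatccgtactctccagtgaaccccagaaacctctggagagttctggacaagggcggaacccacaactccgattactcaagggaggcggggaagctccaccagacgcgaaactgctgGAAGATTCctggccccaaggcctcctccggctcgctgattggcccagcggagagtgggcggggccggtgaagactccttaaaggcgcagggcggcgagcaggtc
Hspa1b: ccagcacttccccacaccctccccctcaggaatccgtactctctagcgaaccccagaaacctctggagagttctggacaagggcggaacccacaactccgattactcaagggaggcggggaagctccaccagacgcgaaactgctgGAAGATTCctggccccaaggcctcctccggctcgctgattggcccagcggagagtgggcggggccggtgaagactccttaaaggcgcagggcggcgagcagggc
Hspb1: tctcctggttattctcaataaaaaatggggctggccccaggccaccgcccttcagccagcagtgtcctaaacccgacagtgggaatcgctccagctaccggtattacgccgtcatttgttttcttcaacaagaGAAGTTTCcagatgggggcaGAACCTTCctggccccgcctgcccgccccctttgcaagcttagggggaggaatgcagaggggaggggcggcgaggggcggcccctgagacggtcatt

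The 250 bases of Hspa1a and Hspa1b were 98.8% identical, with 3 differing bases and the motif 104 bases before the start in both. Hspb1 held it at 2 places, 117 and 97 bases before the start. Of 27025 genes with a promoter in the RefSeq table, 7.73% held the motif in the same window, as did 6.12% of 6336 tested genes with an entry and 6 of 15 heat shock genes with an entry. A match of letters is a description of the sequence and no evidence of binding in these nuclei.

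The size of the heat shock difference changed with the draw of nuclei, which samples both groups. With a second draw Hspa1a had -0.19 (-0.32 to -0.06) and Hspa1b -0.30 (-0.42 to -0.17), and neither passed the call, while Hspb1 had -0.36 (-0.49 to -0.22) and did. With all nuclei, weighted over depth bins by the Mantel-Haenszel method, the values were -0.30 for Hspa1a, -0.28 for Hspa1b and -0.41 for Hspb1. Over 14 settings the ratio of each of the 3 stayed below 0, and Hspa1a and Hspa1b were each called in 5 and Hspb1 in 10. The settings include matching on the heat shock share itself and rescaling of the same nuclei, so they are not independent. Without matching on depth Hspa1a had -1.05. UMIs of heat shock genes made up 0.474% of all UMIs in the matched Kit-detected and 0.529% in the matched Kit-undetected nuclei, and at most 1.17% of the UMIs of Hspa1a or Hspa1b came from 1 nucleus.

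Immediate early genes, which nuclei switch on within minutes of a stimulus or of tissue handling, leaned the same way. Of 18 tested members, 12 lay below 0, and 4, Jun, Zfp36, Btg2 and Ier2, were called lower, beside 2.41% of all genes. Jun had 943 and 1192 UMIs (-0.34, -0.47 to -0.22), Zfp36, an mRNA-decay factor, 171 and 222 UMIs (-0.38, -0.68 to -0.09), Btg2 93 and 123 UMIs and Ier2 66 and 95 UMIs. Jun was called in 7 and Zfp36 in 3 of the other settings that tested them, and Zfp36 lay above 0 when nuclei were thinned to 800 UMIs. The unfolded protein response had 22 tested members, 11 above and 11 below 0, with a median of 0.003. Its called members Syvn1 and Dnajc3, both of protein quality control in the endoplasmic reticulum, were lower, at -0.46 (-0.78 to -0.15) and -0.33 (-0.66 to -0.01), beside 2.41% of all genes. Both lay above 0 when nuclei were thinned to 800 UMIs, and of 13 other settings Syvn1 was called in 11 and Dnajc3 in 7.

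The cholesterol, clock and nuclear long noncoding RNA lists held at most 1 called gene in each direction, with few counts. These are to be read beside the 1.94% of all tested genes called higher and the 2.41% called lower. Of 15 tested cholesterol genes, 1 was called, Lss, lanosterol synthase, which was lower with 97 and 148 UMIs (-0.61), while Nsdhl and Hmgcs1 had 0.20 (0.04 to 0.36) and 0.12 (-0.06 to 0.31). Lss was called lower in 11 of 13 other settings that tested it. Among 15 tested clock genes, Npas2 was called lower with 43 and 67 UMIs (-0.64, -1.23 to -0.07). Among 6 tested nuclear long noncoding RNAs, Pvt1 was called higher (174 and 132 UMIs, 0.39, 0.06 to 0.73) and the imprinted Meg3 lower (48 and 91 UMIs, -0.93, -1.46 to -0.41), while Malat1, with 78155 and 78447 UMIs, had -0.01 (-0.02 to 0.004). Up to 6.47% of the Meg3 UMIs came from 1 nucleus. Each of 24 tested adipocyte transcription factor genes stayed under the call, with a median of 0.01.

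Genes detected in 20% or more of the nuclei of a group were ranked by the interval bound nearest to 0. Of the 12 ranked highest, 1 passed the call. It was B430010I23Rik, annotated as an antisense RNA, with 539 and 425 UMIs and a log2 ratio of 0.34 (0.15 to 0.53). It was called in 2 of 14 other settings, which changed only the scaling, and lay below 0 in nuclei under 1600 UMIs. Reads of an antisense gene can be mistaken for its partner's where strand is not used in counting. Selenow, a small selenoprotein, had 621 and 505 UMIs (0.29, 0.12 to 0.47), Ctnna1, alpha-catenin, 769 and 636 UMIs (0.27, 0.12 to 0.42), and Pdk1, a kinase that inhibits pyruvate dehydrogenase, 419 and 337 UMIs (0.31, 0.10 to 0.52). The others were Smg5, Pygl, Pdhx, Fxr1, Mast4, Pex2, Ndufv1 and Csnk2a1, with 0.15 to 0.30. Of the 12 lowest, Sat1, the enzyme that starts polyamine breakdown, had 315 and 400 UMIs (-0.35, -0.57 to -0.13) and was called in 13 of 14 other settings. The remaining ones beside the heat shock genes, Jun and Pck1 were Braf, Tor1aip1, Usp25, Ldhb and Cry2, with -0.32 to -0.27 and 0 called.

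Notch3 and Rgs5, markers of pericytes, the cells that wrap small vessels, were lower in Kit-detected nuclei. Of 11 pericyte and smooth muscle markers, 4 had enough UMIs, 2 were called lower and 0 higher, beside 2.41% and 1.94% of all genes. Notch3 had 47 and 128 UMIs (-1.45, -1.96 to -0.96), Rgs5 168 and 298 UMIs (-0.83, -1.11 to -0.55), Abcc9 50 and 66 UMIs (-0.41, -0.97 to 0.15) and Cspg4 311 and 280 UMIs (0.15, -0.09 to 0.39). The list as a whole had 670 UMIs in Kit-detected and 869 in Kit-undetected nuclei (-0.38, -0.53 to -0.23). Up to 6.29% of the Notch3 UMIs and 5.15% of the Rgs5 UMIs came from 1 nucleus. A further setting left out nuclei that held 3 or more UMIs of pericyte, immune, fibroblast and Schwann markers. It removes nuclei for their own Rgs5 UMIs, so the Rgs5 value there, 0.01 (-0.40 to 0.42), follows in part from the filter. Hspa1a had -0.31, Fasn 0.07 and Slc25a1 0.22, and of 7631 tested genes 187 were called higher and 160 lower. The part of pericyte RNA in the other differences was not tested.

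Of 20 endothelial markers, 12 were tested, and Cdh5 (61 and 86 UMIs) and Emcn (49 and 82 UMIs) were called lower and Erg (72 and 48 UMIs) higher, beside 2.41% and 1.94% of all genes. Of 10 other settings that tested them, Emcn was called in 10, Erg in 4 and Cdh5 in 2. Summed, they had 2884 and 2960 UMIs (-0.04, -0.12 to 0.03). None of the 12 immune, 7 mast cell and 10 fibroblast markers reached 100 UMIs, and their sums were 63 and 79, 17 and 15, and 119 and 126 UMIs. The 10 Schwann cell and melanocyte markers summed to 623 and 588 UMIs. The part of other cells' RNA in the Kit UMIs was not tested.

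The number of Kit UMIs in a nucleus gave a further view. The nuclei with 1, 2 and at least 3 Kit UMIs numbered 1028, 412 and 196, with medians of 2019, 2262 and 2325 total UMIs, and each class was set against the 2398 nuclei without Kit over the same depth bins. Slc25a1 had log2 ratios of 0.11 (-0.003 to 0.22), 0.29 (0.15 to 0.43) and 0.34 (0.15 to 0.52) in the classes. Pygl had 0.09 (0.03 to 0.15), 0.15 (0.07 to 0.23) and 0.29 (0.18 to 0.39). For both genes the value was larger at 3 or more Kit UMIs than at 1, though the intervals of Slc25a1 overlapped. Fasn had 0.05, 0.13 and 0.07 and Scd1 0.02, 0.07 and -0.05, with no such order. Thrsp had 0.06 (0.01 to 0.11), 0.07 (-0.004 to 0.14) and 0.12 (0.03 to 0.21) and Ppp1r3b 0.02 (-0.02 to 0.05), 0.04 (-0.01 to 0.08) and 0.10 (0.04 to 0.16), ordered as Slc25a1 and Pygl were, with overlapping intervals. Acly had 0.03, 0.07 and 0.06. Hspa1a had -0.34, -0.32 and -0.30, and Ucp1 had 0.06 (-0.07 to 0.19), 0.15 (-0.02 to 0.32) and -0.30 (-0.56 to -0.04). The 3 classes share the same Kit-undetected nuclei, so their values are not independent.

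**Figure D3:**
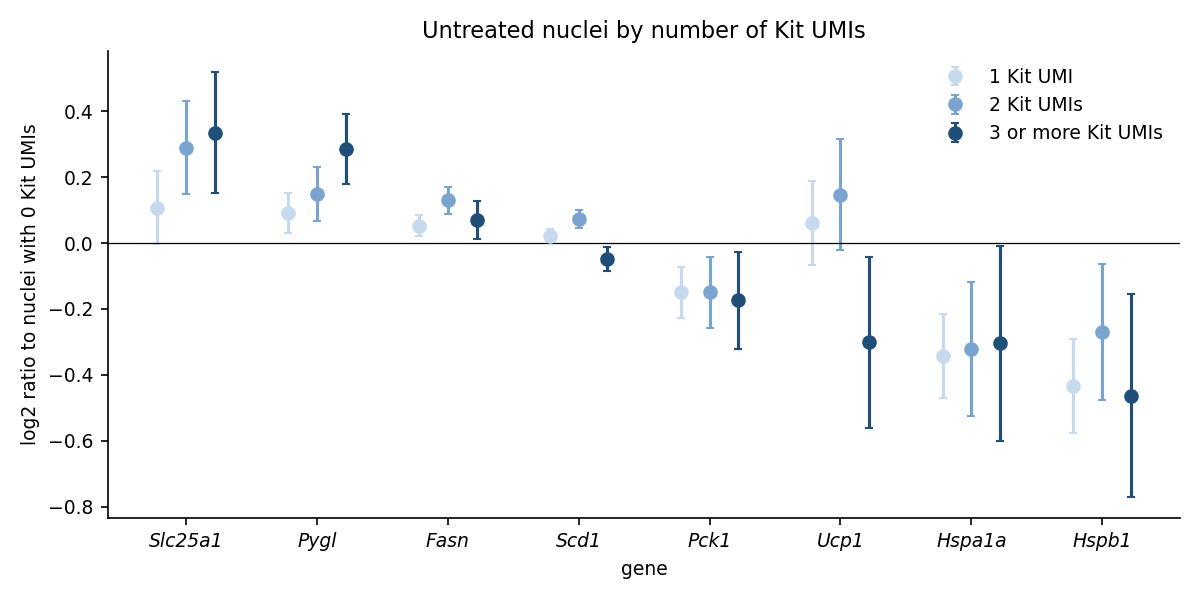
Log2 ratio of 8 genes in untreated nuclei with 1, 2 or at least 3 Kit UMIs over nuclei with 0, by the Mantel-Haenszel method over depth bins with 95% intervals for counting error. Slc25a1 and Pygl lie at 0.11 and 0.09 with 1 Kit UMI and at 0.34 and 0.29 with 3 or more, Fasn and Scd1 show no order, and Hspa1a and Hspb1 lie below 0 in each class.

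The same rule was applied to the sham and denervated libraries, which did not take part in choosing the nuclei or the ranked genes. In the sham library 142 of 2697 BA nuclei had a Kit UMI, 5.27% (4.45% to 6.18%), beside 2.08% (1.11% to 3.54%) of its 624 endothelial nuclei. In the denervated library 571 of 2782 had one, 20.5% (19.0% to 22.1%), beside 13.6% (6.98% to 23%) of 81. The median depths of BA and endothelial nuclei were 1509 and 1040 UMIs in the sham and 1222 and 1001 UMIs in the denervated library. Thinned to 800 UMIs, the BA and endothelial shares were 2.86% (2.26% to 3.56%) and 1.92% (1% to 3.34%) in the sham library. In the denervated library they were 13% (11.7% to 14.3%) and 8.64% (3.55% to 17%). The intervals of BA and endothelial nuclei overlapped in each, and the shares were closer to each other than in the untreated library. The matched groups held 141 and 570 nuclei each. Called genes were 47 higher (5.03%) and 40 lower (4.28%) of 934 tested in the sham library, 9.31% in either direction, and the interval lay on 1 side of 0 for 10.9% at any fold. In the denervated library they were 106 higher (2.9%) and 126 lower (3.45%) of 3654, 6.35% in either direction, and 8.02% at any fold.

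Most fatty acid synthesis genes lay above 0 in the other libraries too, and whether the ratios differ between libraries was not tested. In the sham library, 14 of 14 tested members had a ratio above 0 and 7 were called higher, beside 5.03% of all genes, with a median of 0.30. With a second draw 3 were called and the median was 0.26, and with all nuclei 6 were called at 0.29, where 4.95% and 6% of the genes tested in the matched draw were called higher. In the denervated library, on which the study chose its genes, 15 of 18 tested members lay above 0 and 3 below, 0 were called and the median was 0.12. There 1 member, Slc25a1, was called higher with a second draw, at 0.33 (0.09 to 0.58), and with all nuclei, at 0.37 (0.18 to 0.56), beside 3.28% and 2.9% of genes. Fasn had 0.27 (0.06 to 0.47) in the sham and 0.18 (0.12 to 0.24) in the denervated library, and Scd1 had 0.33 (0.21 to 0.46) and 0.11 (0.08 to 0.15). The sham call of Scd1 was lost with a second draw, at 0.19 (0.06 to 0.31), and with all nuclei, at 0.29 (0.20 to 0.37). In the matched draws Slc25a1 had 0.06 (-0.44 to 0.57) on 70 and 67 UMIs in the sham and 0.22 (-0.02 to 0.46) in the denervated library, and in the sham library 0.20 with a second draw and 0.18 with all nuclei, neither called. Ppp1r3b had 0.45 (0.24 to 0.65) in the sham library, where it was called in both draws but not with all nuclei (0.30, 0.16 to 0.44), and 0.14 (0.07 to 0.21) in the denervated library. The levels behind the ratios differed widely, with Fasn at 5855, 1746 and 5253 CPM in the Kit-detected nuclei of the untreated, sham and denervated libraries.

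Pygl and Pck1 kept their signs in all 3 libraries and in the matched draw, the second draw and the values over all nuclei. Pygl had 0.42 (0.20 to 0.65) in the sham and 0.14 (0.01 to 0.27) in the denervated library. It was called higher in the matched sham draw, but not in the second draw (0.31, 0.09 to 0.53) or over all sham nuclei (0.30, 0.15 to 0.45). Pck1 had -0.23 (-0.44 to -0.02) and -0.15 (-0.29 to -0.01). In the sham library the second draw called it lower at -0.43 (-0.63 to -0.22), and over all nuclei it had -0.09 (-0.25 to 0.06). Ucp1 had 0.29 (-0.16 to 0.74) and -0.07 (-0.30 to 0.17), on both sides of 0.

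Hspa1a, Hspa1b and Hspb1 were called lower in the matched draw of each library, but not under each way of matching. In the denervated library they had -0.44, -0.62 and -0.66, and over all nuclei -0.47, -0.57 and -0.46. A second draw there gave -0.21 (-0.48 to 0.06) for Hspb1, which was not called. In the sham library the matched draw gave -0.62, -0.59 and -0.34, while over all nuclei the values were -0.32 (-0.61 to -0.03), -0.11 (-0.35 to 0.13) and 0.09 (-0.09 to 0.28), with none called and Hspb1 on the other side of 0. Of the 12 heat shock genes tested in the matched sham draw, 4 were called lower and 2 higher, Hspa8 (0.51, 0.10 to 0.93) and Hspe1 (0.64, 0.12 to 1.17), and over all sham nuclei 0 were called lower and 1 higher, beside 4.28% lower and 5.03% higher of all genes in the matched draw and 2.46% and 6% of the same genes over all nuclei. Hsp90aa1 had -0.06 in the matched sham draw and 0.24 (0.06 to 0.42) over all sham nuclei. Jun had 0.04 (-0.29 to 0.37) in the sham and -0.40 (-0.66 to -0.13) in the denervated library, where the second draw gave -0.29 (-0.56 to -0.02) and no call. Pericyte and smooth muscle markers summed to 147 and 201 UMIs in the denervated groups (-0.45, -0.77 to -0.14) and to 127 and 107 in the sham groups (0.25, -0.13 to 0.63), and fibroblast markers to 33 and 59 in the denervated (-0.84, -1.50 to -0.20) and 14 and 22 in the sham groups (-0.65, -1.73 to 0.38). Over all denervated nuclei Notch3 and Rgs5 were called lower, at -1.21 (-1.99 to -0.43) and -0.78 (-1.37 to -0.18), beside 3.25% of all genes tested there. The part of these cells' RNA in the heat shock values was not tested.

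**Figure D4:**
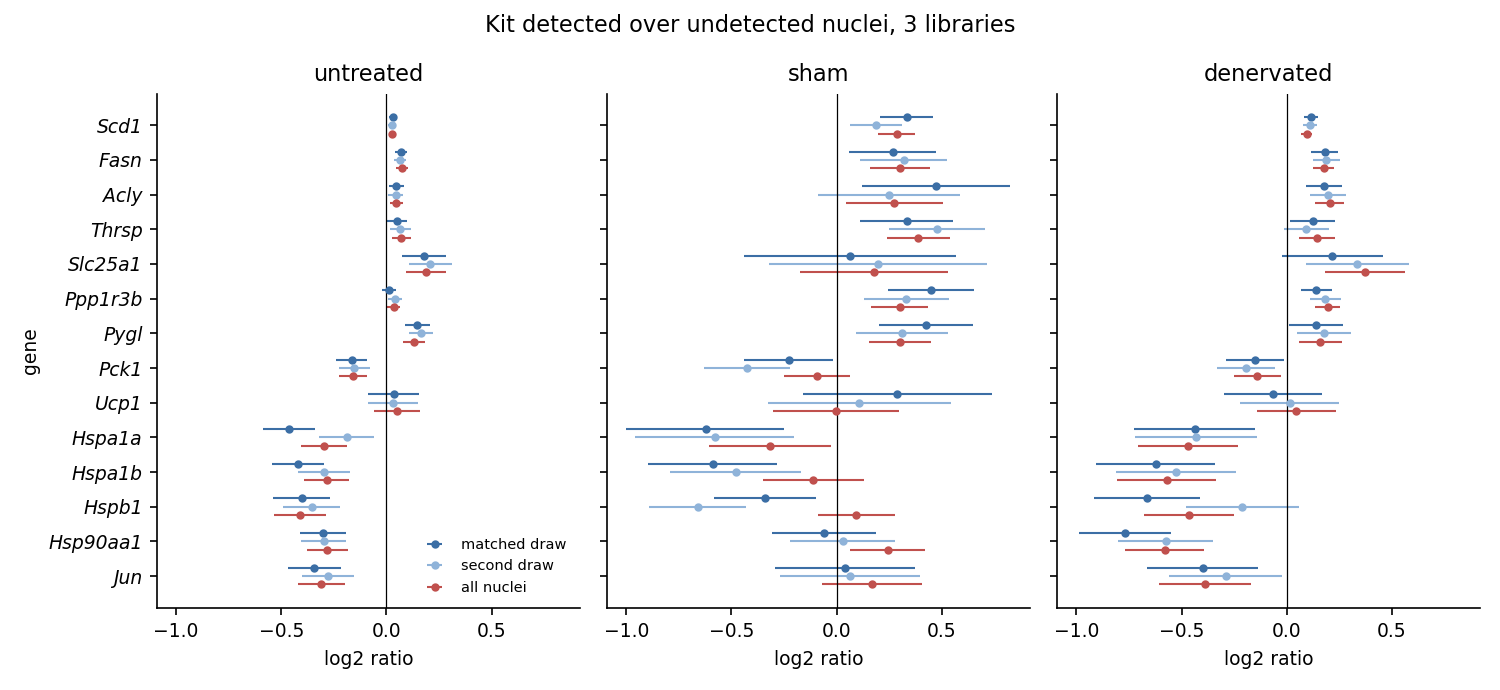
Log2 ratio of Kit-detected over Kit-undetected BA nuclei for 14 genes in the 3 libraries, with 95% intervals for counting error, for the matched draw (dark blue), a second draw (light blue) and all nuclei over depth bins (red). Fasn, Acly, Thrsp and Pygl lie above 0 in each panel and setting, and Hspb1 moves from -0.34 to 0.09 in the sham library when all nuclei are used.

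The ranked genes of the untreated library were looked up in the matched draws of the other libraries, where 2.9% of all genes were called higher and 3.45% lower (denervated) and 5.03% and 4.28% (sham). Of the 12 highest genes, 12 were tested in the denervated library, where 5 had a ratio above 0 and 1, Mast4 (0.38, 0.13 to 0.63), was called higher. In the sham library 2 of the 12 were tested and 1, Pygl, was called higher. Of the 12 lowest, 8 of 12 lay below 0 in the denervated library and 5 were called lower, namely Hspa1a, Hspa1b, Hspb1, Jun and Hsp90aa1 (-0.77, -0.99 to -0.55). In the sham library 8 of them were tested, 6 lay below 0 and 3, Hspa1a, Hspa1b and Hspb1, were called lower. Cry2, at -0.28 in the untreated library, was called higher in the denervated one (0.45, 0.05 to 0.84). Among 3654 genes tested in both, 57 were called in the untreated and 232 in the denervated library, with 5 in the same direction (8.77% and 2.16% of the calls), Hspa1a, Hspa1b, Hspb1, Jun and Pacs1. Between the untreated and sham libraries, 4 calls were shared, 57.1% of the 7 untreated and 4.6% of the 87 sham calls, Hspa1a, Hspa1b, Hspb1 and Zfp36.

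Across genes, the log2 ratios of the untreated and denervated libraries had a Pearson correlation of 0.01 over 3654 genes, and of 0.27 over the 503 genes with at least 500 UMIs in both. Without the heat shock and immediate early lists the latter was 0.17 over 498 genes. For the untreated and sham libraries the values were 0.09 over 934 genes and 0.47 over 78, and 0.47 over 75 without these lists. Genes of 1 library share its nuclei and its draw and are not independent replicates.

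The same 4034 nuclei were also split by Ucp1, as a gene of like detection. A Ucp1 UMI was found in 1531 nuclei (38.0%), and 701 nuclei had both Kit and Ucp1. In 1464 matched nuclei a side, 166 genes were higher and 172 lower of 7985 tested (4.23%), close to the 4.35% of the Kit split. Kit had a log2 ratio of 0.005 (-0.12 to 0.13) between Ucp1-detected and Ucp1-undetected nuclei. Hspa1b was called lower in Ucp1-detected nuclei too, at -0.50 (-0.63 to -0.37), while Hspa1a had -0.24 (-0.37 to -0.11) and Hspb1 -0.23 (-0.37 to -0.10), neither called. Slc25a1, Pygl and Pck1 had 0.02 (-0.09 to 0.12), -0.04 (-0.10 to 0.01) and 0.11 (0.04 to 0.19) there, and Fasn 0.04 (0.01 to 0.07) and Scd1 0.06 (0.04 to 0.08), beside 0.07 and 0.03 in the Kit split.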

How the data were processed

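Single-nucleus RNA of 3 libraries was analysed. Per gene and nucleus, the values the authors deposited are whole UMI counts with no scaling. BD Rhapsody software made them on GRCm38 with GENCODE vM19, as 2 of the 3 files state in their opening lines, those of untreated and denervated BAT. The submitters' processing notes name Seurat 4.0.6 and a human build, GRCh38, which the mouse symbols and headers contradict. The sums of UMIs were 14971579, 14725864 and 9420030 in the untreated, sham and denervated libraries.

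Nuclei were chosen as the report states. DIEM and decontX, which the study applied, were not repeated, doublets were handled only by the marker ratio of the rule, and the deepest nucleus held 5853 UMIs. Log2 ratios of summed UMIs were computed with exact conditional binomial intervals at 95%, and shares with Clopper-Pearson intervals, while Mantel-Haenszel ratios over all nuclei have normal intervals. A gene was called at 100 or more UMIs, a log2 ratio of 0.32 or more in size and an interval on 1 side of 0. The second draw used another random seed. The calculation was tested on simulated gene totals with counting error only, so that test does not cover spread between nuclei. Genes named are the 12 highest and 12 lowest by the interval bound nearest 0 among those with a UMI in 20% of nuclei of either group, the genes of the rule, Ucp1, Kitl, the study's 6 genes and, per list, the 4 best-counted and the called members. The members and the lists were chosen with earlier results of these data known, and 1 listed gene is not reported here. Gene positions came from GENCODE vM21 on GRCm38. The alternatives changed the draw, the matching, the filters, the scaling, the thresholds and the splitting gene, and the second draw and all-nuclei values for the sham and denervated libraries were added after seeing the data. MAST over nuclei was not used, since nuclei of 1 library are not replicates. Python 3.11.15, numpy 2.4.6, scipy 1.17.1, pandas 2.3.3 and matplotlib 3.10.9 were used.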

Additional observations from a re-analysis of the deposited data

Results flagged for a closer look

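Arcn1, which encodes a subunit of the COPI vesicle coat, was called in opposite directions in 2 libraries. Its log2 ratio of Kit-detected over Kit-undetected nuclei was -0.37 (-0.64 to -0.11) on 213 and 275 UMIs in the untreated library and 0.69, with its interval above 0, on 74 and 46 UMIs in the denervated library. The difference between the libraries was not tested, and Arcn1 was singled out after its values were seen.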

How the results depend on the processing

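In the untreated library the counts of genes called higher and lower were within 1.5 times the main 155 and 193 under every alternative but these: 257 higher without matching, 64 higher and 68 lower in nuclei under 1600 UMIs, 280 and 357 with at least 10 UMIs per gene, 5 and 13 with at least 500, 44 and 51 at a fold of 1.5, and 304 and 335 with the interval alone. In nuclei under 1600 UMIs only 1874 genes were tested, and without matching 8692, beside 8007 in the main split. The limits on UMIs per gene changed which genes were tested, and the fold settings changed only the call. Why more genes were called higher without matching was not tested. The median of fatty acid synthesis genes was 0.13 without matching. The share with a Kit UMI was 48.1% at 1600 or more UMIs, 15.1% at 2 or more Kit UMIs, 20.9% thinned to 800 UMIs and 38.6% with the endothelial genes at 0. Over all nuclei, 316 and 151 of 6834 genes were called in the sham and 213 and 205 of 6308 in the denervated library, where more nuclei entered. Of the called genes that the naming rule chose, the only ones recomputed singly, those that changed sign were B430010I23Rik (-0.033) under 1600 UMIs, Zfp36 (0.14), Syvn1 (0.18), Dnajc3 (0.11) and Rpl37 (-0.025) thinned to 800 UMIs, Rgs5 (0.0069) without nuclei with markers of other cells, and Ier2 (0.056), Erg (-0.13), Notch3 (0.10), Rpl37 (-0.14) and Ndufb7 (0.15) when split by Ucp1. The markers of other cells include Rgs5 itself, so its change of sign follows in part from that filter. Depth limits the Kit call itself, since many nuclei without a Kit UMI may hold Kit RNA. No paired analysis was possible because each condition has 1 library, and no replicate could be left out.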

Other observations

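Genes of the respiratory chain and of ribosomes, which the text above does not describe, were close to equal in Kit-detected and Kit-undetected untreated nuclei. Of 74 tested nuclear-encoded respiratory chain genes, 48 lay above 0 with a median log2 ratio of 0.04, and 1 was called higher, Atp5j (0.39, 0.08 to 0.70), and 1 lower, Ndufb7 (-0.40, -0.69 to -0.10). The 12 tested mitochondrial-encoded genes had a median of 0.001 with 0 calls, and mt-Co2, a cytochrome oxidase subunit, had 16772 and 16769 UMIs. Of 74 tested ribosomal protein genes, 1 was called higher, Rpl37 (0.34, 0.09 to 0.60), with a median of 0.0046. Of all tested genes 1.94% were called higher and 2.41% lower. Among 12 tested adipokine and secreted factor genes, 0 were called and the median was -0.03, with Vegfa, the vessel growth factor, at -0.01 (-0.07 to 0.05) and Nrg4, a brown fat factor, at -0.05 (-0.14 to 0.04). Of 17 tested genes of branched-chain amino acid breakdown, 0 were called and the median was 0.02.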
